A study of Mus musculus with 4 samples.

Results

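Of the immediate early genes, 10 were followed here: the AP-1 subunits Fos, Fosb, Fosl2, Jun, Junb and Jund, the zinc finger factor Egr1, the early response genes Ier2 and Ier3, and the orphan nuclear receptor Nr4a1. They were chosen by name, as all probes that the array or its platform annotation assigns to these genes. That gave 13 probes out of 45281, for 10 of the 20664 genes with a named probe. The array calls Jund by the older name Jund1, and it was found through the platform annotation.

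RNA came from lineage-negative mouse bone marrow cells, the fraction left after cells with mature blood cell antigens are removed. The 2 control samples carried Atad3afl/fl, floxed alleles of a gene for a mitochondrial inner membrane ATPase, and the 2 deletion samples carried Atad3afl/flMx1Cre. Both groups were sampled on day 12 after poly I:C, a synthetic RNA that induces interferon. In Mx1Cre mice the interferon-inducible Mx1 promoter drives Cre, and it is not restricted to one blood lineage. Only the deletion group carried it, so an effect of Cre and an effect of the lost Atad3a cannot be told apart. The labels do not say whether replicates were separate animals or pools, so the p-values cover no more than the variation among these samples, which is possibly technical. Every sample had its own array, of the Illumina mouse WG-6 v2 type.

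Immediate early genes are transcribed within minutes of a growth factor, cytokine or stress signal, without new protein synthesis, and their mRNAs are short-lived. Fos and Jun proteins pair through leucine zippers into AP-1, which binds DNA. Egr1 binds GC-rich sites and is held back by the NAB corepressors, and Nr4a1 acts without a known physiological ligand. In mouse hematopoietic stem cells Egr1 is known for restraining proliferation. These mRNAs are also known to rise while tissue is taken apart and cells are sorted.

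Probe levels are given below as log2 intensity after background correction and quantile normalization, and a probe counted as detected on an array where its detection p-value was under 0.05. Of the 45281 probes, 37.5% to 39.9% were detected per array. A gene was represented by its brightest probe detected on at least 2 arrays, and changes are deletion minus control. Of 10583 genes tested by limma, 28.9% passed an adjusted p of 0.05, 14.7% higher and 14.1% lower in the deletion samples. With median scaling 1228 were higher and 1863 lower against 1560 and 1495, and the median of all genes moved to -0.10. Atad3a itself was lower by a log2 change of -1.07 (SE 0.13, limma adjusted p = 0.00866), but its 1 probe was not placed relative to the deleted exons and so may check nothing. Comparing 2 with 2 arrays by exact permutation cannot give a p below 0.333, and no exact test is given for single genes.

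Egr1 and Ier3 were higher in the deletion samples, each by more than 2-fold. Jun, a dim probe, was lower, but its call was lost under some other processings, the authors' processed values among them. The other 4 of the 7 tested members, Fos, Fosl2, Junb and Jund, did not pass the test, although Fosl2 was called higher under 4 other processings, and Fosb, Ier2 and Nr4a1 were not detected on any array. In bulk RNA a change in the share of a cell type and a change in RNA per cell cannot be told apart.

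Egr1, the growth factor-induced zinc finger factor, read 9.25 and 9.36 in controls and 10.68 and 10.28 in deletion samples. Both deletion arrays lay above both controls, and the array of deletion replicate 1 was the highest. The control mean was 9.31 ± 0.08 (SD, n = 2), and the deletion samples had a mean of 10.48 ± 0.28 (SD, n = 2). The 2.25-fold rise (log2 change 1.17, SE 0.17, 95% interval 0.72 to 1.62) passed limma's test at an adjusted p of 0.0133. The signal before normalization showed the same order, 692.6 and 840.3 in controls against 1592.8 and 1211.7 in deletion samples. Without deletion replicate 1 the log2 change of Egr1 was 0.97 and the call was lost, and without deletion replicate 2 the change was 1.37. The change was thus larger where deletion replicate 1 was kept. Each of these fits has only 1 deletion array left, so they cannot decide how far the rise rested on deletion replicate 1.

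Ier3, which encodes a small stress-induced protein that modulates cell survival, read 8.05 and 7.91 in controls and 9.24 and 9.09 in deletion samples. The groups were far apart against their spread, with means of 7.98 ± 0.09 (SD, n = 2) and 9.16 ± 0.10 (SD, n = 2). Ier3 rose 2.27-fold (log2 change 1.18, SE 0.13, 95% interval 0.85 to 1.52, limma adjusted p = 0.0066). Signals before normalization were 337.6 and 352 in controls and 642.4 and 590.6 after deletion. Its change exceeded that of 96.5% of all tested genes, and that of Egr1 exceeded 96.3%. Without deletion replicate 1 the adjusted p of Ier3 was 0.0530 with a log2 change of 1.11.

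Jun, the central AP-1 partner, was a dim probe that was detected on all 4 arrays, with detection p-values of 0.00107 and 0.00214 in controls and 0.0171 and 0.0406 in deletion samples. It read 5.67 and 5.70 in controls against 5.15 and 4.99 in deletion samples, so both deletion arrays were lower. Jun fell by 0.61 on the log2 scale (SE 0.12, 95% interval -0.93 to -0.30, limma adjusted p = 0.0266), which is 1.53-fold. Signals before normalization overlapped, at 123.9 and 132 in controls and 124.8 and 120.5 in deletion samples. The median signal of all probes was 95.8 and 101 for the control arrays, and higher, 112.1 and 111.9, for the deletion arrays. As a ratio to that median, Jun was 1.29 and 1.31 in controls and 1.11 and 1.08 in deletion samples. The log2 change was -0.21 uncorrected for background (adjusted p = 0.0880), -0.29 with normexp without control probes (0.0614) and -0.17 in the authors' processed values (0.120), and the call also ended without any 1 of the 4 arrays (adjusted p from 0.0538 to 0.155).

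The promoter sequences of Ier3 and Jun, called members that moved in opposite directions, and of Fos, the best-known gene of the group, are shown for the elements that immediate early regulation is known to use. Each is the 250 bases before the RefSeq start site in GRCm38.p6, 5′ to 3′: chr17:35821463-35821712 on the plus strand for Ier3, chr4:95052223-95052472 on the minus strand for Jun and chr12:85473640-85473889 on the plus strand for Fos. Capitals mark matches on either strand to any motif searched.
Ier3: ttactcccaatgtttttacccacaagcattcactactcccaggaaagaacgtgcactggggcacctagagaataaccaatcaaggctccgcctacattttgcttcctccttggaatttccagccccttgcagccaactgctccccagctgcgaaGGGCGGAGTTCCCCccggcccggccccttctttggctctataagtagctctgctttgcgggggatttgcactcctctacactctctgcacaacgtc
Jun: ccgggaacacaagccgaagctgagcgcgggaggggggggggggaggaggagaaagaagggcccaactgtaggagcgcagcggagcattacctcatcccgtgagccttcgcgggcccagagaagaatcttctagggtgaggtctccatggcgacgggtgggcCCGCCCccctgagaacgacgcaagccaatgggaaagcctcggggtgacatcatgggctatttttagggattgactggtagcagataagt
Fos: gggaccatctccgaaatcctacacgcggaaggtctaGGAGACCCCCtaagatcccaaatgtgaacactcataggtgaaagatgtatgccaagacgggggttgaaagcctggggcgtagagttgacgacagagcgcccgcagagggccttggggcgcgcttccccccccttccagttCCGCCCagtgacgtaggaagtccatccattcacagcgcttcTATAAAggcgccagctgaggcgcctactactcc
The motifs searched were the AP-1 site TGANTCA, the cyclic AMP element TGACGTCA, the Egr site GCGNGGGCG, the GC box GGGCGG, the TATA box TATAAA, the CArG box of SRF and the kappaB site. Of the 8 member promoters in the RefSeq table, 6 held a GC box (Fos, Fosb, Fosl2, Jun, Ier3 and Nr4a1) and 4 a kappaB site (Fos, Fosb, Fosl2 and Ier3), where 32.7% and 3.9% of all 32851 promoter windows of that length did. In Ier3 the kappaB match, 92 to 83 bases before the start, overlapped the GC box match 96 to 91 bases before it. The Egr site was matched in 3 (Fosb, Fosl2 and Nr4a1, background 4.7%), overlapping a GC box in each, and the TATA box in Fos (background 12.4%). The AP-1 site, the cyclic AMP element and the CArG box were matched in 0 of the 8, against backgrounds of 6.75%, 1.55% and 1.47%. Only exact matches counted, so near matches such as tgacgtag in Fos and tgacatca in Jun were left out, as were sites farther upstream. A match describes letters in this window, and no match says nothing of the factor. Of the genes whose promoter held a kappaB match, Ier3 was called and Fos and Fosl2 were not, and Fosb was not detected. Ier2 and Egr1 are not shown.

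Among the other Jun proteins, Junb, which opposes Jun in many settings, read 6.82 and 7.59 in controls and 7.37 and 7.45 in deletion samples. The control arrays lay farther from each other than from the deletion arrays, so the groups overlapped. Its log2 change of 0.20 (SE 0.27) had a 95% interval from -0.52 to 0.92 and did not pass (limma adjusted p = 0.612). It was -0.18 without control replicate 1 and 0.59 without control replicate 2. Another Junb probe was detected on control replicate 1 only, where it read 5.17 against 4.56, 4.51 and 4.49 on the other arrays, and was not tested. Jund, the constitutively expressed Jun protein, read 5.36 and 5.64 in controls and 5.53 and 5.12 in deletion samples, again overlapping. Its log2 change was -0.18 (SE 0.20, 95% interval -0.69 to 0.34, limma adjusted p = 0.534), and it was 0.032 without deletion replicate 2.

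Of the Fos proteins, which bind DNA as partners of Jun proteins, Fos read 6.18 and 6.5 in controls and 6.56 and 6.74 in deletion samples. The groups did not overlap but nearly touched, and the log2 change of 0.31 (SE 0.16, 95% interval -0.11 to 0.74) did not pass (limma adjusted p = 0.210). The change was 0.15 without control replicate 1 and 0.47 without control replicate 2. Fosl2, which encodes FRA2, a longer-lived Fos protein, read 7.69 and 7.68 in controls and 8.17 and 8.02 in deletion samples. The deletion arrays were higher in both replicates, by a log2 change of 0.41 (SE 0.12, 95% interval 0.09 to 0.73), and the limma adjusted p of 0.0667 missed the threshold. It passed uncorrected for background (0.0427), with normexp lacking control probes (0.0482), in the authors' processed values (0.0427) and when p-values were adjusted over genes with probes averaged (0.0461). The other Fosl2 probes, 2 in number, were undetected on all 4 arrays.

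Fosb, a Fos protein best known from neurons, Ier2, a nuclear early response protein, and Nr4a1, a nuclear receptor induced by antigen receptor signals in lymphocytes, were undetected on all 4 arrays by their single probes. Signals before normalization were 95.6 and 101.9 in controls and 109.8 and 96.4 in deletion samples for Fosb. Those of Nr4a1 were 84.3 and 84.7 in controls and 97.1 and 98.7 in deletion samples, below the median of all probes on every array. Those of Ier2 were 95.8 and 90.7 in controls and 116.9 and 109.6 in deletion samples, which does not overlap, but after normalization they read 4.67 and 4.42 against 4.84 and 4.59, which does. Levels of these probes are within the background, so a difference was not detectable at this signal, and no fold is given.

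**Figure D1:**
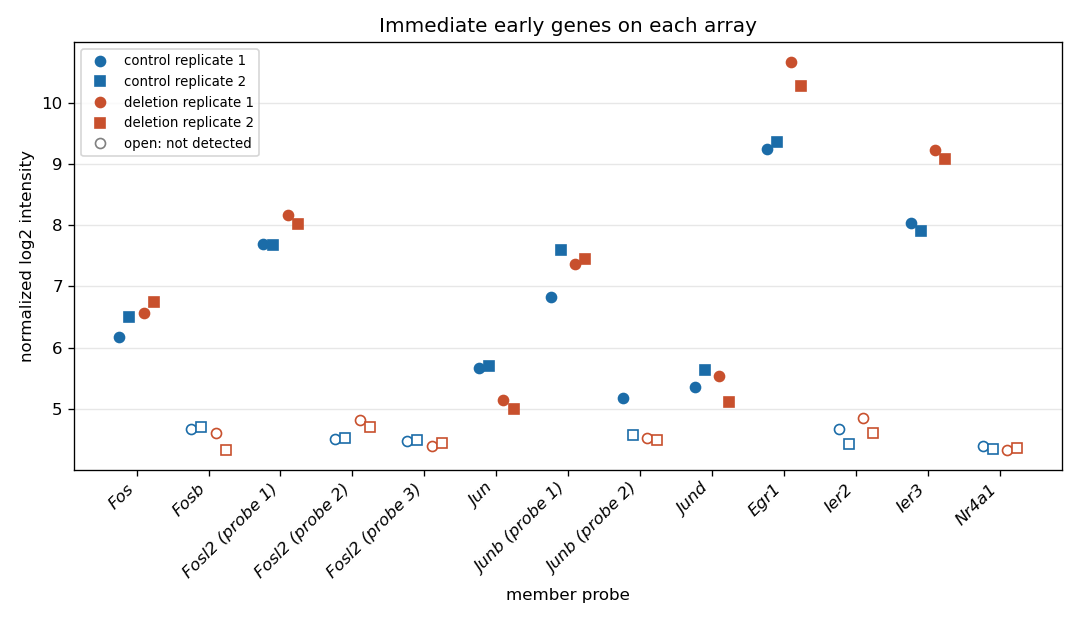
Normalized log2 intensity (vertical axis) of each of the 13 member probes (horizontal axis) on each of the 4 arrays, blue for control and orange for deletion, circles for replicate 1 and squares for replicate 2, filled where the probe was detected. Egr1 and Ier3 stand higher on both deletion arrays and Jun lower, and the probes of Fosb, Ier2 and Nr4a1 are open on all arrays.

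Of the 7 tested members 2 rose, 1 fell and 4 did not pass. Calls on 3 of 7 genes stand beside 28.9% of all tested genes called, 14.7% higher and 14.1% lower, and a share of so few genes is imprecise. The members tested had a median log2 change of 0.31, against 0.00 over all tested genes, and the middle 50% of all tested genes lay between -0.33 and 0.36. Fos, Junb and Jund lay within that range, and Fosl2 just above it. The groups did not overlap for 5 of the 7 members, where 72.9% of all tested genes had no overlap, so that share was near the background. Of the 5, 4 were higher and 1 lower in deletion samples, against 37.0% and 35.9% of all tested genes. A common direction was not present: within the Jun proteins Jun fell and Junb had a positive and Jund a negative value, neither called. With deletion replicate 1 left out, 0 members rose and 0 fell, where 7.76% of all tested genes were called.

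**Figure D2:**
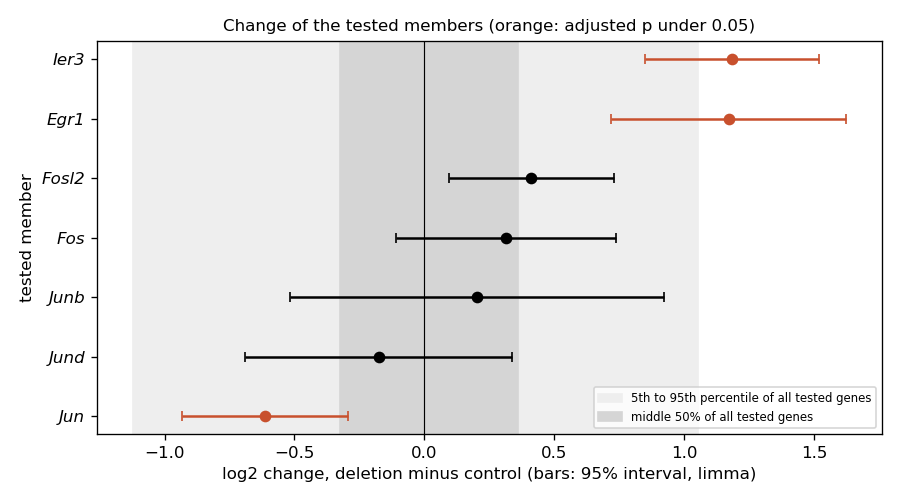
Log2 change, deletion minus control (horizontal axis), of the 7 tested members with 95% intervals from limma, orange where the adjusted p was under 0.05. Grey bands give the middle 50% and the 5th to 95th percentiles (-1.12 to 1.05) of all 10583 tested genes, and Ier3 and Egr1 lie to the right of both bands.

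The other bZIP genes, partners or competitors of Fos and Jun, were measured by 13 of 14 listed genes, of which 7 were tested, 3 rose and 1 fell, with a median log2 change of 0.14. The counts of this list and of those that follow stand beside the 14.7% of all tested genes that rose and the 14.1% that fell, and with so few genes a list's share is imprecise. Batf3, which a subset of mouse dendritic cells needs to develop, read 4.81 and 5.31 in controls, detected on 1 of them, and 6.75 and 6.65 in deletion samples. It rose 3.12-fold (log2 change 1.64, SE 0.20, limma adjusted p = 0.00875). Its dimmer probe read higher by 1.04 but was undetected on both control arrays, so that size is uncertain. The size of the rise of Batf3 by its brighter probe depended on the background correction: it was 0.69 uncorrected, 0.91 with normexp lacking control probes and 0.58 in the authors' processed values, each past the threshold. Jdp2, a bZIP protein known to repress AP-1 targets, read 6.91 and 7.08 in controls and 8.29 and 8.78 in deletion samples, a 2.91-fold rise (SE 0.20 on the log2 scale, limma adjusted p = 0.01). Batf, a partner of Jun proteins in lymphocytes, rose by a log2 change of 0.90 (SE 0.14, limma adjusted p = 0.0146). The log2 change of Jdp2, 1.54, was 1.11 uncorrected for background, 1.25 with normexp lacking control probes and 1.06 in the authors' processed values. In the same settings that of Batf was 0.65, 0.73 and 0.61, and both genes stayed called. Crem, a cyclic AMP-responsive factor, fell by 0.95 on the log2 scale (SE 0.15, limma adjusted p = 0.0166) by its brightest probe, detected on 1 of the 2 deletion arrays. Of its other tested probes 1, undetected on both deletion arrays, also fell, and 2 did not pass, with log2 changes of 0.24 and -0.24. The change of Crem was -0.35 uncorrected for background, -0.47 with normexp lacking control probes, -0.29 in the authors' processed values and -0.38 as the mean of its detected probes, still called. Fosl1, the fourth Fos gene, had no named probe, and Atf3, a stress-induced partner of Jun, was undetected on all 4 arrays. Calls on Batf, Batf3 and Crem were lost without deletion replicate 1 (adjusted p 0.0915, 0.0578 and 0.0579) and without deletion replicate 2 (0.0821, 0.0548 and 0.0940), leaving Jdp2. Crem was also lost without control replicate 2 (0.0565).

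Beside Egr1, the other Egr and Nr4a genes and their corepressors had 4 tested members, of which 1 rose and 0 fell, with a median of 0.36. The gene that rose was Nab1, a corepressor that binds Egr proteins. It read 7.94 and 7.80 in controls and 8.90 and 8.89 in deletion samples (log2 change 1.02, SE 0.12, limma adjusted p = 0.00793). Of the 5 Nab1 probes tested 4 rose, 1 of them undetected on both control arrays, and the remaining one had a log2 change of 0.36 (limma adjusted p = 0.272). Egr2 and Egr3 read higher on both deletion arrays, with log2 changes of 0.34 (SE 0.14, limma adjusted p = 0.140) and 0.39 (SE 0.19, limma adjusted p = 0.180), and did not pass. In the authors' processed values they were 0.13 and 0.23, and without deletion replicate 1 they were 0.20 and 0.17. Nr4a2 and Nr4a3 were each detected on at most 1 array by their brightest probe and were not tested. The call on Nab1 was lost without deletion replicate 1 (adjusted p = 0.0605) or deletion replicate 2 (0.0622).

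Of a wider list of 42 immediate early genes, 33 were tested. Of these 9 rose, 6 fell and 18 did not pass, with a median of 0.12, where 14.7% and 14.1% of all tested genes rose and fell. Ppp1r15a, the phosphatase subunit GADD34, fell by 1.63 on the log2 scale (SE 0.12, limma adjusted p = 0.00287), from 9.30 and 9.36 in controls to 7.65 and 7.75. Plk3, a stress-responsive kinase, rose 2.41-fold (SE 0.14 on the log2 scale), Klf6, a Kruppel-like factor, 2.23-fold (SE 0.11), and Ier5l, a relative of the early response gene Ier5, by a log2 change of 0.98 (SE 0.17). Each of these had deletion arrays on one side of both controls, as did 72.9% of all tested genes. They were named for their large changes, so this adds no support. Plk3 and Ier5l were still called but smaller uncorrected for background (log2 changes of 0.73 and 0.40) and in the authors' processed values (0.66 and 0.33). The same held with normexp lacking control probes (0.89 and 0.53). The counts depended on single arrays: 4 rose and 5 fell without control replicate 1, and 5 rose and 1 fell when control replicate 2 was left out. Only 1 rose and 1 fell without deletion replicate 1, and 2 rose and 1 fell without deletion replicate 2. With median scaling 5 rose and 7 fell. The calls on Ppp1r15a and Klf6 held under each of the alternatives. Without deletion replicate 1 the adjusted p was 0.0506 for Plk3 and 0.0826 for Ier5l, and without deletion replicate 2 it was 0.0536 and 0.110.

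Of the transcription factors upstream, SRF, the ternary complex factors, CREB with its coactivators and the MEF2 factors are known to switch immediate early genes on. Of 11 tested genes in that list, 1 rose and 1 fell, with a median of 0.01, beside 28.9% of all tested genes called. Both were MEF2 genes, and the other 9, all from the SRF, ternary complex and CREB groups, did not pass. Srf itself had a log2 change of 0.01 (limma adjusted p = 0.954). Without control replicate 1, 2 genes of the list rose and 0 fell. Mef2c, a factor that also binds immediate early promoters, rose by 1.01 (SE 0.12, limma adjusted p = 0.00798), and its 3 other tested probes rose too. That call was lost without deletion replicate 1 (adjusted p = 0.0623) or deletion replicate 2 (0.0590). Mef2d, its relative, fell by 0.45 on the log2 scale (SE 0.12, limma adjusted p = 0.0488), and the call was lost without any 1 of the 4 arrays, with the adjusted p reaching 0.232 without deletion replicate 1. It was also lost, among other settings, in the authors' processed values (log2 change -0.12, adjusted p = 0.230) and without background correction (-0.15, 0.186).

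Of 25 tested kinases and GTPases from Ras to AP-1, 2 rose and 4 fell, and the median was 0.11, again beside 28.9% of all tested genes called. Hras, a Ras GTPase, fell by 0.78 on the log2 scale (SE 0.13, limma adjusted p = 0.0182), and its other probe fell by 0.69. Map2k1, the ERK-activating kinase MEK1, fell by 0.67 (SE 0.11, limma adjusted p = 0.0174), and Map2k3, an activator of p38, by 0.63 (SE 0.14, limma adjusted p = 0.0356). The change of Map2k1 was -0.29 uncorrected for background, -0.38 with normexp lacking control probes and -0.25 in the authors' processed values, still called. Rps6ka5, the kinase MSK1 that phosphorylates CREB, rose by a log2 change of 0.78 (SE 0.14, limma adjusted p = 0.0195). The counts were 1 and 6 with median scaling, 0 and 2 without control replicate 2, and 0 and 0 without deletion replicate 1 or deletion replicate 2. Of 7 tested genes for proteins that turn AP-1 over, such as the ubiquitin ligases Fbxw7 and Itch, 0 passed limma's test, and 1 did at an unadjusted p under 0.05; with median scaling 1 fell.

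**Figure D3:**
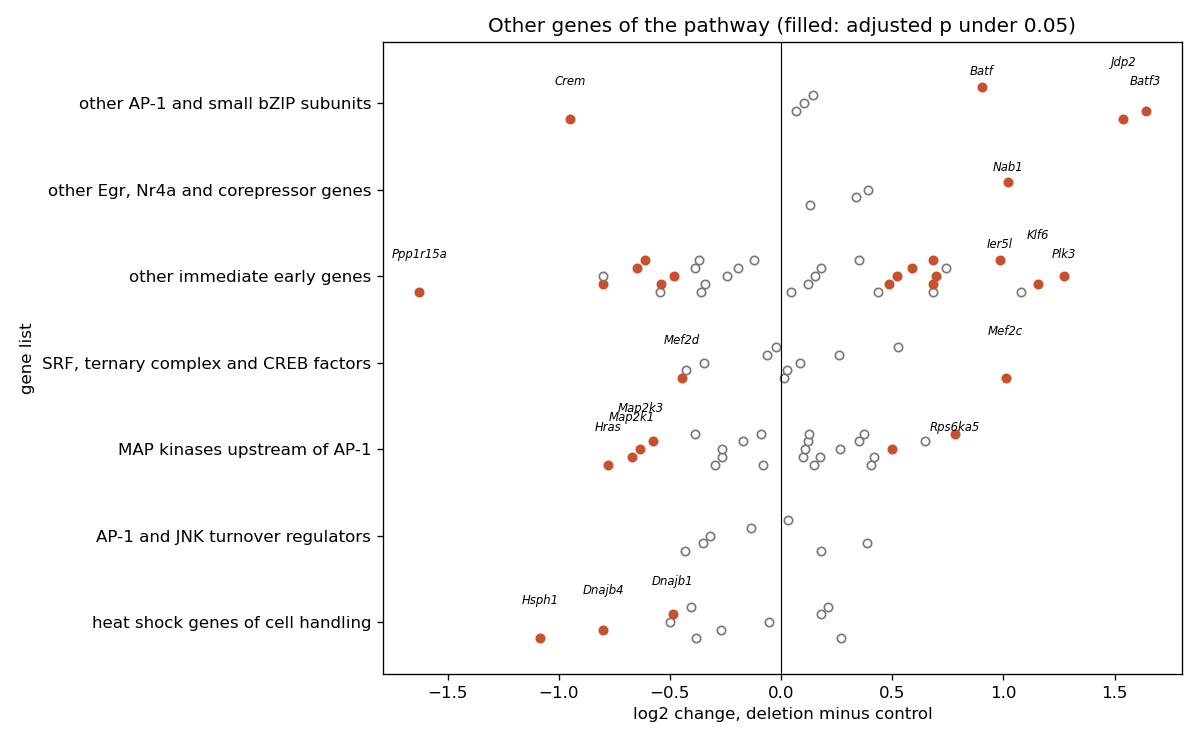
Log2 change, deletion minus control (horizontal axis), of every tested gene in 6 pathway lists and the heat shock list (vertical axis), filled where the adjusted p was under 0.05, with the called genes that are named in the text labelled. The list of other immediate early genes has called members on both sides of 0, from -1.63 for Ppp1r15a to 1.27 for Plk3.

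Heat shock genes, which like the immediate early genes are known to rise with cell handling, were followed beside the members. Of 11 tested, 0 rose and 3 fell, with a median of -0.38: Hsph1 fell by 1.08 on the log2 scale (SE 0.16, limma adjusted p = 0.0135), Dnajb4 by 0.80 (SE 0.13, limma adjusted p = 0.0155) and Dnajb1 by 0.49 (SE 0.12, limma adjusted p = 0.0412), each a chaperone or cochaperone. The summed level of the list was 31560 and 34090 in controls and 31060 and 31720 in deletion samples, and Hspa1a and Hspb1 were detected on no array. Without deletion replicate 1 or deletion replicate 2, 0 fell, and with median scaling 5 did. The call on Dnajb1 was also lost without control replicate 1 (adjusted p = 0.0682) and control replicate 2 (0.0924), and that on Dnajb4 in the authors' processed values (log2 change -0.23, adjusted p = 0.0623). Dnajb4 was at -0.28 uncorrected for background and at -0.38 with normexp lacking control probes, both called. Its probe was detected on both control arrays but, of the deletion arrays, on deletion replicate 2 only. The part of cell handling in the values of Egr1, Ier3 and Jun was not tested.

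Summed marker levels of several cell types differed between the groups, beside 28.9% of all tested genes called. Of 13 tested erythroid markers 12 fell, and the summed intensity of the list went from 58740 and 60870 in controls to 9795 and 3033 in deletion samples, with Hbb-b1 and Epb42 detected on no array. All 13 tested B lymphoid markers fell, from a sum of 26940 and 26750 to 2379 and 2754, with Pax5 detected on no array. Of 13 T and NK markers 9 rose (16980 to 17050 in controls, 29170 to 35930 in deletion samples, Cd8a and Ncr1 on no array), and of 11 megakaryocyte and platelet markers 7 rose and 1 fell (1767 to 1824 against 3171 to 4454, Gp6 and Clec1b on no array). Of 12 stem and early progenitor markers 8 rose and 3 fell (4266 to 4373 against 7894 to 8056), with Kit, Ly6a and Cd34 detected on all 4 arrays and Flt3 and Hlf on none. Of 12 monocyte and macrophage markers 5 rose and 1 fell (13530 to 13850 against 19160 to 20390, Fcgr1 and Itgam on no array), and of 13 eosinophil, basophil and mast markers 7 rose and 3 fell (37370 to 37440 against 50470 to 54540, Il5ra on no array). Of 14 neutrophil markers 4 rose and 2 fell (38280 to 40630 against 35280 to 36050, Mmp8 on no array). Of 8 tested stroma and endothelium markers 3 rose (1642 to 1739 against 2557 to 2608), with Col1a1, Col3a1, Lepr, Bglap, Lum and Kitl on no array. Leaving out 1 array changed most of these counts, apart from the erythroid (11 to 13 fell) and B lymphoid lists (12 to 13). Without deletion replicate 1, 0 monocyte and macrophage and 0 stroma and endothelium markers were called, 2 T and NK and 4 megakaryocyte markers rose, 4 stem and progenitor markers rose and 1 fell, 3 eosinophil, basophil and mast markers rose and 3 fell, and 1 neutrophil marker rose and 2 fell. Without deletion replicate 2 the monocyte and stroma lists again had 0, 4 T and NK and 2 megakaryocyte markers rose, 3 stem and progenitor markers rose and 1 fell, 4 eosinophil, basophil and mast markers rose and 2 fell, and 1 neutrophil marker rose and 1 fell. With either 1 of the control arrays left out, 4 megakaryocyte markers rose, and without control replicate 2, 4 eosinophil, basophil and mast markers and 1 stroma marker did. The part of these shifts in the values of the immediate early genes was not tested.

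The genes whose deviations from their own mean over the 4 arrays lay nearest to the median deviations of the tested members were Cx3cr1, Sema6b, Wdr45b, Rcsd1 and Zfp609, at Euclidean distances of 0.04 to 0.05. Their log2 changes were 0.26 to 0.31, and none of the 5 passed limma's test. Among the 10583 tested genes, 62 other than the members lay within a distance of 0.1. The 5 were chosen by closeness to this profile, so their similar changes follow from that choice.

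How the called and nearly called members moved with the processing is shown in the plot by setting. Egr1 stayed between 0.98 and 1.17 and Ier3 between 0.97 and 1.20 over the 10 settings that kept all arrays, each past the threshold, while Fosl2 ran from 0.28 to 0.42 and Jun, untested in 1 of them, from -0.65 to -0.17.

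**Figure D4:**
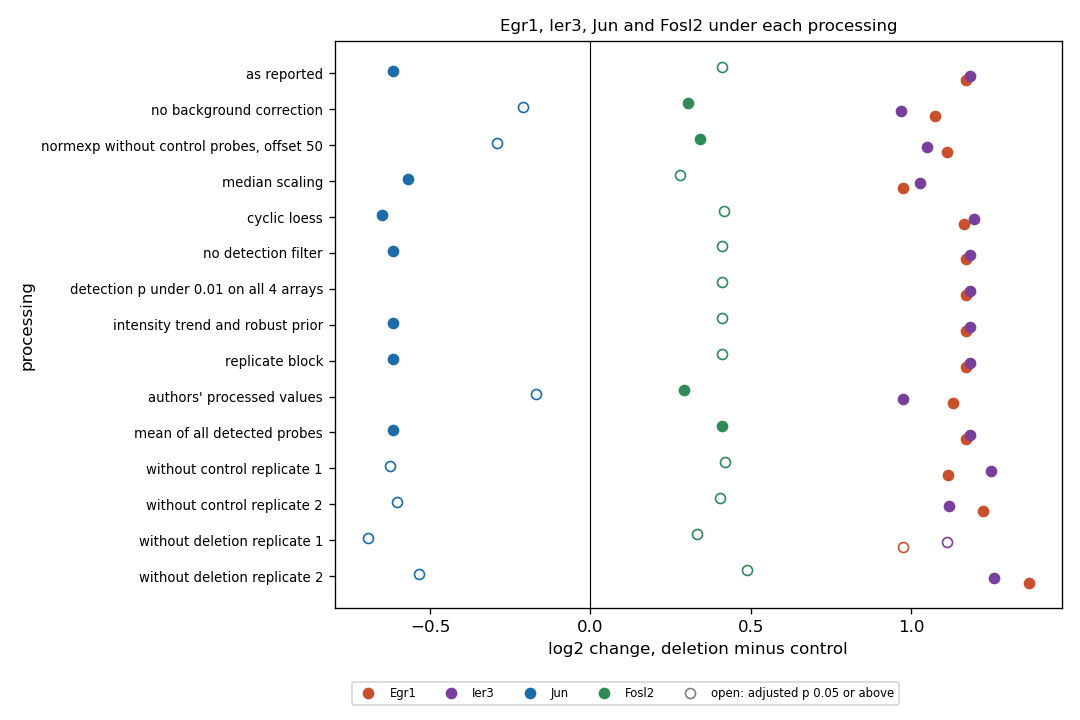
Log2 change, deletion minus control (horizontal axis), of Egr1, Ier3, Jun and Fosl2 under the processing as reported and each alternative (vertical axis), filled where the adjusted p was under 0.05. Egr1 and Ier3 are open only without deletion replicate 1, and Jun is nearest to 0 uncorrected for background, with normexp lacking control probes and in the authors' processed values.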

How the data were processed

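Per the file headers, the scanner table pairs a non-normalized intensity with a detection p-value for 45281 probes on each of 4 arrays. The submitters' processing notes name GenomeStudio, with version and background settings not given in the sources used here. Intensities that the authors processed themselves, linear and by their values normalized between arrays, are in the deposited series matrix, which served as an alternative after taking log2.

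With limma 3.58.1 (R 4.3.3), neqc correction was applied to the signals (normexp with negative controls inferred from the detection p-values, offset 16), quantile normalized and log2 transformed. Correction and offset both bear on the size of changes in dim probes. The 18367 probes detected (p under 0.05) on 2 or more arrays were tested with lmFit and eBayes (2 residual and 2.72 prior degrees of freedom), two-sided, with Benjamini-Hochberg adjustment over all of them. Genes came from the platform annotation for 34885 probes, 34807 of which matched RefSeq (GRCm38.p6, for names only), and from the array's own names for 2467, and 18 probes with several genes stayed unnamed. The annotation can be old. The fit was tested on simulated data.

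The members, the gene lists and the tests were chosen with earlier results of these data known. Beside the members and Atad3a, the genes named were up to 4 called genes with the largest change per pathway or heat shock list, Fosl1, Atf3, Egr2, Egr3, Nr4a2 and Nr4a3, and the 5 genes nearest in pattern. Srf, Fbxw7, Itch and the undetected markers were named after their values were seen. Kit, Ly6a and Cd34 were also named outside that rule. Summed levels add linear normalized intensities over the list's genes with a probe. The labels state no pairing by replicate number, and the main fit used none. The sources used here do not give slide or scan date.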

Additional observations from a re-analysis of the deposited data

How the results depend on the processing

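With 2 arrays a group, signal over background and the number of arrays limit every value. Uncorrected for background, with normexp lacking control probes, and in the authors' processed values, the log2 change of Jun was -0.21, -0.29 and -0.17 and no longer passed, and 0 members fell in each. With detection p under 0.01 on all 4 arrays Jun and Jund were not tested, so 0 fell. Fosl2 passed in the same 3 settings, with 0.31, 0.34 and 0.29, and at 0.41 with the mean of all detected probes, which adjusts over fewer tests. Leaving out 1 array at a time, log2 changes ran from -0.69 to -0.53 for Jun, 0.97 to 1.37 for Egr1, 1.11 to 1.26 for Ier3, -0.18 to 0.59 for Junb and -0.38 to 0.032 for Jund. Members that rose numbered 0 to 2 and members that fell 0 to 0, and 6.97% to 25.6% of all tested genes were called, with fewer samples. Without a detection filter 13.3% were called, over 20664 genes. The cause of the other changes was not tested. Cyclic loess, median scaling and an intensity trend with a robust prior changed no member's call.

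Same-numbered arrays had deviations from their group means that correlated at 0.0253. With 2 arrays a group the deviations mirror each other, so this single value cannot show whether same-numbered arrays were paired. With the replicate block 23.0% of all tested genes were called against 28.9%, and 2 members rose and 1 fell, with adjusted p of 0.0229 for Egr1, 0.0136 for Ier3 and 0.0497 for Jun. Among the other genes named, the block ended the calls on Dnajb1 (adjusted p = 0.0756), Map2k3 (0.0594) and Mef2d (0.0886), and of the wider immediate early list 6 rose and 3 fell.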
